A study of Mus musculus with 6 samples.

Results

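Clone B3 is one of 3 clones of mouse embryonic stem (ES) cells, named A1, B3 and C6, and it was compared over all genes with the other two. The members are both B3 arrays, taken by their titles, of 6 arrays in all, and the 4 arrays of A1 and C6 were the comparison. All 3 clones descend from the EBRTcH3 line of E14 origin, grown on gelatin with LIF, and carry the coding sequence of human GTF2I at the Rosa26 locus behind a promoter that tetracycline silences. Each clone gave 1 array with tetracycline present (T0, uninduced) and 1 array after 24 h without it (T24, induced). GEO's labels conflict on the transgene: it is GTF2I in the titles, which were used here, and GTF2IRD2 in the genotype field. The values were log2 summaries of Affymetrix probe sets, so a difference of 1 is a doubling, and every difference below is B3 minus the mean of A1 and C6 with the state held constant. The labels call the arrays biological replicates, but B3 is a single clone with 1 array per state, and p-values measure only the spread between these arrays.

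ES cell clones picked from one line can carry stable differences in expression. Some are loci that are copied, lost or silenced in a founder cell, and others are gene groups that only a part of a culture transcribes. Genes of the two-cell embryo, which include the Tcstv, Usp17 and Zfp352 families, are transcribed in a minority of ES cells. Many germline genes, such as Dazl and Mael, have CpG-rich promoters that DNA methylation and Polycomb-related repressors keep quiet in somatic cells and only partly quiet in ES cells.

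The genes furthest below both other clones in B3, among well measured ones, were Gm20767 and AF067061 at the end of chromosome 13, Usp17la and the X-linked homeobox gene Rhox5. The 24 genes called lower had varied functions, and 2 of them were on the two-cell-like list. In the other direction, Lefty1, which encodes a secreted inhibitor of Nodal, was the leading gene among those past the test. A stretch of chromosome 12 also had lower values in B3. With limma and the state as covariate, Benjamini-Hochberg adjusted p under 0.05 called 5 of 45037 probe sets higher in B3 (0.0111%) and 48 lower (0.107%). Taking for each gene the probe set with the highest mean, the call was made for 3 of 18193 genes higher (0.0165%) and 24 lower (0.132%). An unadjusted p under 0.05 was reached by 5215 probe sets, where 2252 would be expected with no difference and independent arrays. The fit does not model that each clone gave a pair of arrays, so this excess is not a measure of B3 alone. Leaving out either B3 array left 0 calls in both directions, and fitting only probe sets with a mean of 6 or more gave 0 higher and 14 lower.

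Both B3 arrays lay above all 4 others in 2661 genes (14.6% of those measured) and below them in 2504 (13.8%). Among the 9561 genes with a mean of at least 6 over the arrays, these shares were 9.19% and 20.2%, and the median difference was -0.045. In a fit with a term for each clone, 68 genes were higher in B3 than in A1 (0.374%) and 264 lower (1.45%), and 12 were higher than in C6 (0.066%) and 62 lower (0.341%). Both of these comparisons use the same B3 arrays. Of the 27 genes called against A1 and C6 together, 22 passed the test against each clone separately. When the other clone was left out of the fit, the order of the clones was reversed. Then 68 probe sets were higher and 228 lower against A1, and 360 and 1274 against C6. Which clone B3 is nearer to thus depends on the fit. The difference between B3 and the other clones by state, tested as an interaction in limma, was called for 0 probe sets, and 485 had an unadjusted p under 0.05.

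**Figure D1:**
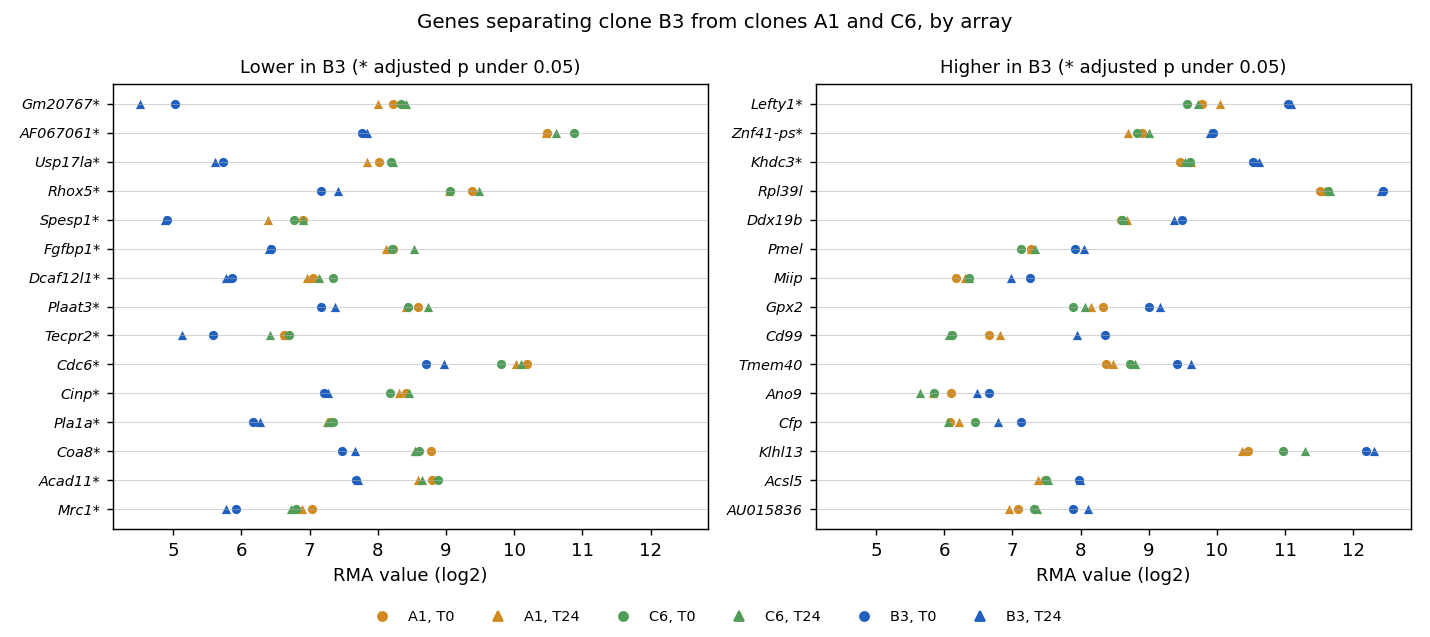
RMA values (log2, horizontal axis) of the 15 genes leading in each direction, with circles for T0 and triangles for T24 of clones A1, C6 and B3. Both B3 arrays lie beyond all 4 others in every row, as the choice of genes required. Asterisks mark an adjusted p under 0.05 in limma (15 of the lower genes, 3 of the higher).

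Gm20767, a predicted gene on chromosome 13, stood at 5.02 and 4.52 in B3 (T0 and T24), at 8.22 and 8.0 in A1, and at 8.33 and 8.41 in C6. B3 was thus 11.1-fold lower, with a log2 difference of -3.47 (SE 0.16, limma adjusted p = 0.0072). AF067061, a neighbouring gene, read 7.77 and 7.84 in B3 against 10.48 and 10.47 in A1 and 10.88 and 10.62 in C6, a 6.99-fold difference (log2 -2.80, SE 0.14, adjusted p = 0.0072). In both genes the B3 arrays lay far below the nearest array of another clone. These genes lie in a row of 7 measured genes that ends the measured part of chromosome 13 in the RefSeq order (assembly GRCm38.p6), which was picked out after the values were seen and so is given with no test. In all 7, both B3 arrays lay below all 4 others, as in 13.8% of all genes and 20.2% of those with a mean of at least 6. Of the 7, 3 were called lower (Gm20767, AF067061 and Tcstv3), beside 0.132% of all genes. All but Gm20767 and AF067061 had a mean under 6. Of the 7, 2 were near the floor of the arrays, whose lower quartiles were 3.66 to 3.73: BC147527 had a mean of 3.01, under that level, and Tcstv3 was under it in both B3 arrays.

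Tcstv3 stood at 3.19 and 3.04 in B3 and between 4.06 and 4.24 in the other arrays (log2 -1.02, SE 0.10, adjusted p = 0.040). Tcstv1 stood at 3.98 and 4.12 in B3 and between 4.75 and 4.86 in the others (-0.76, adjusted p = 0.066). The remaining members differed by -0.73 (AF067063) and -1.04 (D13Ertd608e), with BC147527 at the floor. Tcstv1 and Tcstv3 belong to the variable gene group of the two-cell stage. The 4 measured genes just before the row, Hmgcs1, Nim1k, Zfp131 and Gm46390, had differences of 0.25, -0.17, 0.12 and 0.23. Genes of this row are near copies of each other and some of the probe sets are of a type that can bind several copies, so the level of a single copy is uncertain.

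Outside that row, Usp17la, a deubiquitinase gene of the Usp17 family on chromosome 7, stood at 5.74 and 5.61 in B3, at 8.01 and 7.85 in A1 and at 8.19 and 8.23 in C6 (5.26-fold lower, log2 -2.40, SE 0.13, adjusted p = 0.0077). On the list of genes of the two-cell-like state, 7 of 16 were measured and 2 of them were called lower (Usp17la and Tcstv3), with 0 higher. Both B3 arrays were below all 4 others in 5 of 7 (71.4%), where 13.8% of all genes and 20.2% of those with a mean of at least 6 were. The median difference of the list was -0.752 (-0.732 against A1 and -0.746 against C6), beside 0.014 over all genes, and all 7 differences were below 0. Zfp352, a zinc finger gene of the same stage, read 6.03 and 5.61 in B3 against 6.44 to 6.71 in the others (-0.75, adjusted p = 0.17), and a second probe set of it was called lower (-1.01). The list's members include Tcstv1 and Tcstv3 of the chromosome 13 row, so the row and the list are not separate evidence. In bulk RNA, fewer cells of this state and less RNA per cell cannot be told apart.

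The letters before the start of the lower genes are shown for those that carry the finding, with every CG in capitals, for comparison with the germline genes further on. Each is 250 bases, 5′ to 3′ on the gene's strand, from the RefSeq promoter table (GRCm38.p6): AF067061 at chr13:120262845-120263094 (plus strand, 2 CG), Usp17la at chr7:104856766-104857015 (plus strand, 1 CG) and Rhox5 at chrX:37754358-37754607 (plus strand, 4 CG). The median of 14452 measured genes with an entry was 13 CG. The 18 genes called lower with an entry had a median of 9.5 CG, from 0 to 41, and 9 of them had at least 10. The promoters printed here are thus CG-poor members of a mixed group.
AF067061: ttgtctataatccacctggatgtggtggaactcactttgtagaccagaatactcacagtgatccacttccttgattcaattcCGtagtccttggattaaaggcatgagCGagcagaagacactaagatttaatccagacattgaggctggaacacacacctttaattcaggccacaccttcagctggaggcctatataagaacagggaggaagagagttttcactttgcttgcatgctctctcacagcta
Usp17la: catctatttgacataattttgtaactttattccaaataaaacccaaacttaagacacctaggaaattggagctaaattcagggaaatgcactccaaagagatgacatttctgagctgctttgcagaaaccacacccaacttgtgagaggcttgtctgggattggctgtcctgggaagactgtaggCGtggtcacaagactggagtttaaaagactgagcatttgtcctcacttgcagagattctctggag
Rhox5: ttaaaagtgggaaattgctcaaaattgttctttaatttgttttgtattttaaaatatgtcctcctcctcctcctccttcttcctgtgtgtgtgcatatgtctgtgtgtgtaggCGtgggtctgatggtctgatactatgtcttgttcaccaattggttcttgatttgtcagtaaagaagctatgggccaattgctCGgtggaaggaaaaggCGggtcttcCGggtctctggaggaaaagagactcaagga

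**Figure D2:**
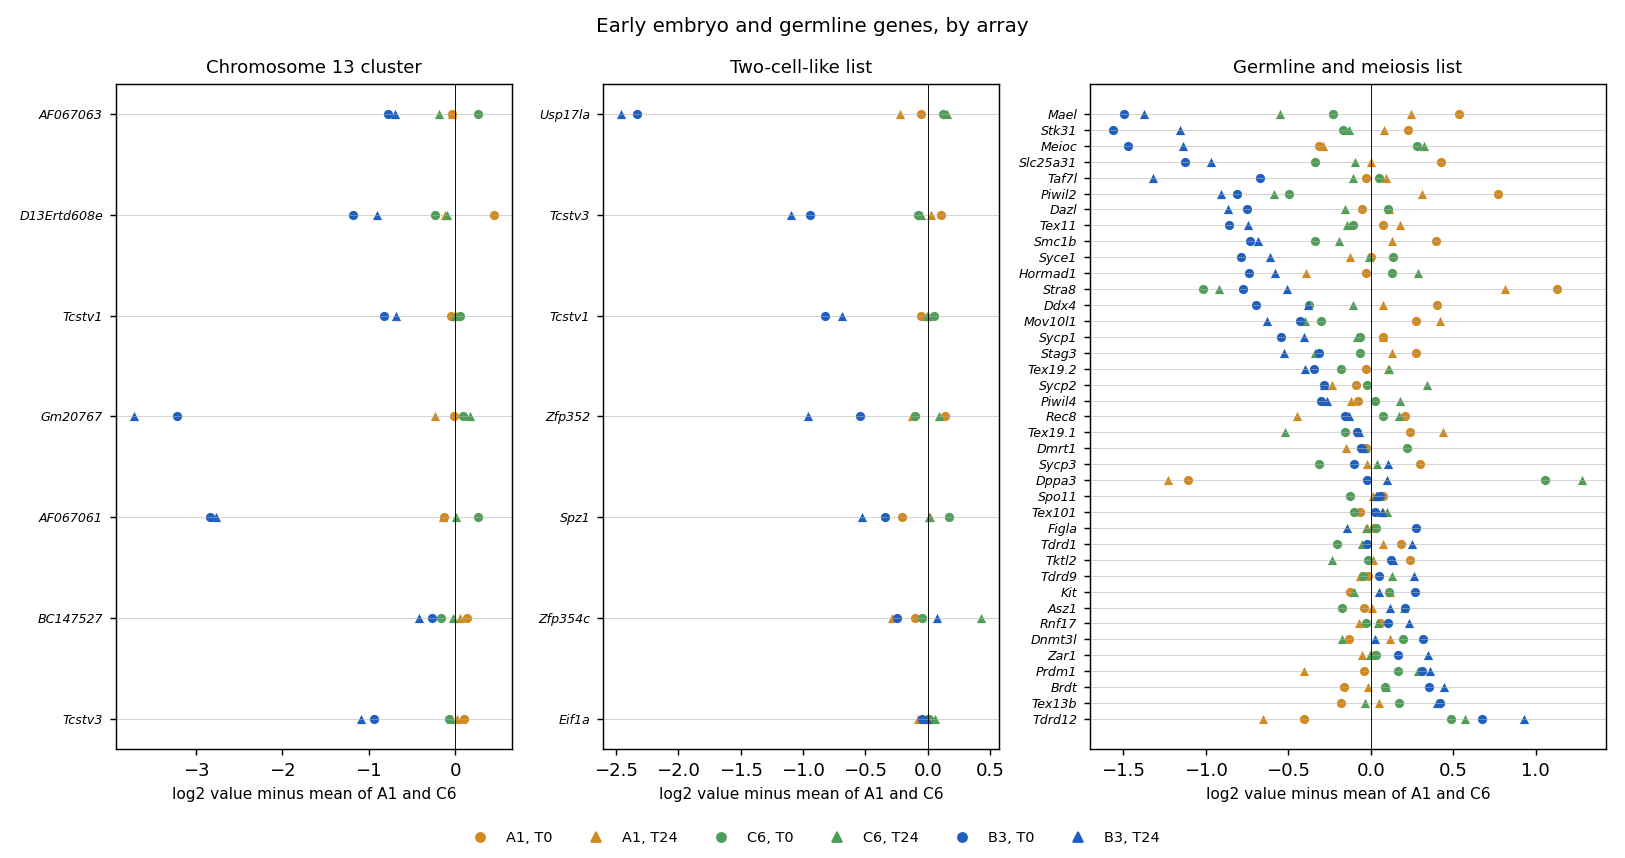
Log2 values of each array minus the mean of all A1 and C6 arrays over both states (horizontal axis). Panels show the chromosome 13 row, the two-cell-like list and the germline and meiosis list, with colours and shapes for clones and states. The B3 points lie furthest to the left for Gm20767, AF067061 and Usp17la, and Dppa3 spreads widest between A1 and C6 with B3 between them.

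Among the other genes called lower, Rhox5, a homeobox gene of the reproductive Rhox cluster, stood at 7.16 and 7.42 in B3, 9.39 and 9.05 in A1 and 9.05 and 9.49 in C6 (3.87-fold lower, log2 -1.95, SE 0.16, adjusted p = 0.026). Of the 14 genes on the list of Rhox and X-linked germ genes, Rhox5 was the one called. Spesp1, which encodes a sperm equatorial segment protein, differed by -1.85 (3.60-fold, adjusted p = 0.026), and Fgfbp1, which carries FGFs out of the matrix, by -1.84 (3.59-fold, adjusted p = 0.014). Fgfbp1 read 6.44 and 6.41 in B3 against 8.12 to 8.53 in the other arrays.

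Cdc6, which loads the replicative helicase onto origins, stood at 8.71 and 8.97 in B3, 10.19 and 10.03 in A1 and 9.81 and 10.10 in C6 (2.28-fold lower, log2 -1.19, adjusted p = 0.048). It was the one call among 31 genes of the G1/S list, of which 7 (22.6%) had both B3 arrays below all others and 2 above, a share near the 20.2% of all genes with a mean of at least 6. The list's median was -0.133. The remaining 8 named lower genes fell by 2.03- to 2.47-fold, with adjusted p from 0.026 to 0.047. Dcaf12l1 stood at 5.87 and 5.77 in B3 and 6.97 to 7.34 in the others. Plaat3, a phospholipid acyltransferase, stood at 7.16 and 7.37 in B3 and 8.42 to 8.73 in the others. Pla1a, a phospholipase, stood at 6.18 and 6.28 against 7.26 to 7.34, and Acad11, an acyl-CoA dehydrogenase, at 7.69 and 7.72 against 8.60 to 8.88. Mrc1, the mannose receptor of macrophages, stood at 5.92 and 5.77 against 6.73 to 7.04. The other named ones, Tecpr2 (-1.24, a regulator of autophagy), Cinp (-1.10, a CDK2-interacting protein) and Coa8 (-1.05, for cytochrome c oxidase assembly), lie on chromosome 12 and are taken up with the run there. Among called genes with a mean under 6 were Arg2, mitochondrial arginase (-2.10, adjusted p = 0.012), and Ubtfl1, an HMG-box protein of the preimplantation embryo (-1.80). Of the 24 genes lower at 1 probe set per gene, 7 were of this dim kind. Counting every probe set, 37 genes had at least 1 called lower, and for some of them the brightest probe set differed little, such as Cdk12 (-1.38 in the called probe set and 0.13 in the brightest) and Kctd1 (-1.20 and 0.07).

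**Figure D3:**
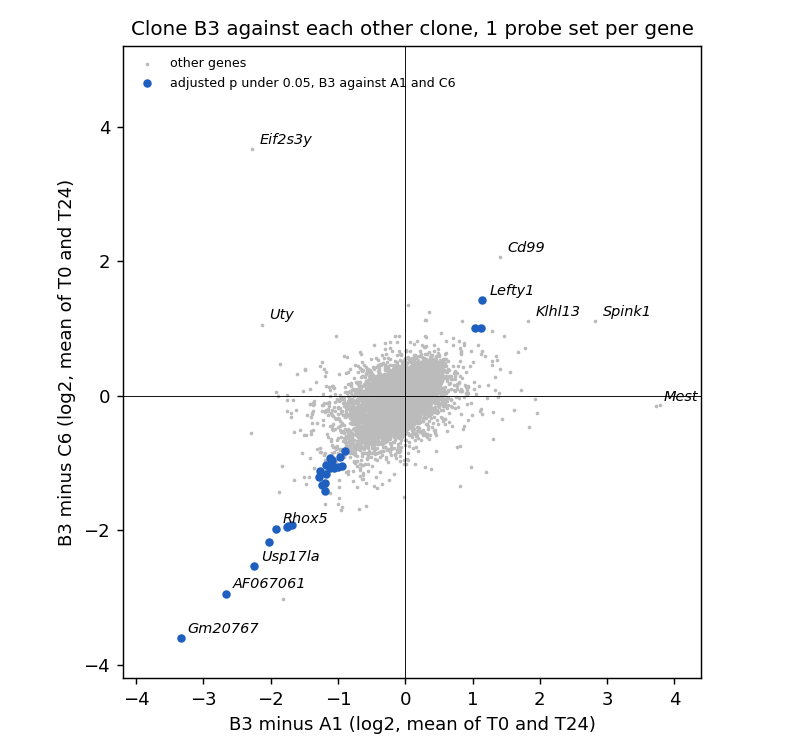
Mean log2 difference of B3 from A1 (horizontal axis) and from C6 (vertical axis) for 18193 genes, with blue points for the genes called against A1 and C6 together. The called genes lie near the diagonal, while Eif2s3y, Uty, Spink1 and Mest stand off it.

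The germline and meiosis list held 39 measured genes, of which 0 were called in limma. In the clone-term fit, counting either direction, 11 of the 39 passed against A1 and 3 against C6. Of all 18193 genes, 332 and 74 did so. Both B3 arrays lay below all 4 others in 17 of 39 (43.6%) and above them in 6, where 13.8% and 14.6% of all genes did so. Among all genes with a mean of at least 6, as 20 of the 39 had, these shares were 20.2% and 9.19%. The list's median difference was -0.144. Mael, a protein of the piRNA pathway that silences transposons, stood at 6.04 and 6.16 in B3, at 8.07 and 7.78 in A1 and at 7.31 and 6.99 in C6 (log2 -1.44, adjusted p = 0.19). Stk31, a kinase-like protein of germ cells, stood at 3.86 and 4.26 in B3, at 5.64 and 5.49 in A1 and at 5.25 and 5.28 in C6 (-1.36, adjusted p = 0.061). Dazl, an RNA-binding protein of germ cells, read 7.18 and 7.07 in B3 and from 7.77 to 8.04 in the others (-0.81, adjusted p = 0.090). Others with low B3 values were Meioc (-1.31), Slc25a31, the sperm ADP/ATP carrier (-1.05), Taf7l (-1.0), Piwil2 (-0.86) and Tex11 (-0.80), and none of them passed the test. Tdrd12, a further piRNA pathway gene, differed by +0.80, also without a call.

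The promoters of the germline list held 2 to 31 CG, with a median of 14 beside 13 for measured genes. All of the germline promoters printed here lie above the list's median. Those of Mael, Stk31 and Dazl, whose B3 values are given above, are printed for comparison with the previous set, in the same way and from the same table: Mael at chr1:166238745-166238994 (minus strand, 18 CG), Stk31 at chr6:49395289-49395538 (plus strand, 21 CG, the first of 2 entries) and Dazl at chr17:50293621-50293870 (minus strand, 20 CG).
Mael: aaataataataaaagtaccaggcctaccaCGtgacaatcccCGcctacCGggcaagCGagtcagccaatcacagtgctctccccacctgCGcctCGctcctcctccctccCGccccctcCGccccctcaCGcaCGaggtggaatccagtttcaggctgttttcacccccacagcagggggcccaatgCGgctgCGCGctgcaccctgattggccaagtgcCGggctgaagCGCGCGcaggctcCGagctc
Stk31: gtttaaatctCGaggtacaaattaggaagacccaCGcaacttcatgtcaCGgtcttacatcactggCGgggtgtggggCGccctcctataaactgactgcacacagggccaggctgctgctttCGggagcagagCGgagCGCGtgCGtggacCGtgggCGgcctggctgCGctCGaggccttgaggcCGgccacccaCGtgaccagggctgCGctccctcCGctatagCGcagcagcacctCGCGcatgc
Dazl: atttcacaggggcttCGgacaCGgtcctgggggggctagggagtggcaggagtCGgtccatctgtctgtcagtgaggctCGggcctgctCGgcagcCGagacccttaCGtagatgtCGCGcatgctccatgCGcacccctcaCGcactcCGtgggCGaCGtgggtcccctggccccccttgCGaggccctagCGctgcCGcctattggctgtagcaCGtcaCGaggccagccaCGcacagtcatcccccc

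The motif searched was CACGTG, the E-box that Max and MGA bind, which reads the same on both strands. It was found in the promoters of 13 of 33 germline list genes with an entry (39.4%), in 7.56% of measured genes and in 6.02% of all promoters. Among the 15 germline genes with an entry and both B3 arrays below the others it was found in 8 (53.3%), and among the other 18 in 5 (27.8%). The median number of CG was 18 and 11.5 in these groups, 14 over the whole list and 15 over all genes with both B3 arrays below the others. TCCCGC, the core of an E2F site, searched on either strand, was found in 27.3% of the germline list and 25% of measured genes. Of the 2 motifs, Mael held both, Stk31 held CACGTG and Dazl held neither. The 3 promoters of the two-cell-like list held neither.

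A scan of neighbouring genes found 1 run of lower values in B3, on chromosome 12. Over the whole chromosome, 23.9% of the scanned genes had both B3 arrays below all others, beside 20.2% genome-wide. The scan took windows of 11 consecutive genes with a mean of at least 6 (9341 windows). In 20 windows the median difference was at or below -0.5 against both A1 and C6, and these joined into 1 run. No window was that high in the other direction. Such runs were not particular to B3. By the same rule A1 had 85 higher windows in 7 runs, 1 of them with 58 genes on chromosome 14, and 9 lower windows in 1 run. C6 had 0 windows in either direction. The B3 run was chosen from its values, so its numbers are a description with no test. It went from Setd3 to Zfyve21 and held 30 scanned genes, of which 28 had a difference below 0 and 19 (63.3%) had both B3 arrays below all others, where 20.2% of such genes did. Its median difference was -0.63, with -0.72 against A1 and -0.55 against C6, while A1 and C6 differed by 0.07. B3 was the lowest clone in 24 of the 30 at T0 and in 23 at T24, beside 6073 and 5404 of all 18193 genes. That background includes genes with a mean under 6, unlike the 30. Of the 30 genes, 4 were called lower (Cinp, Tecpr2, Rcor1 and Coa8).

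Cinp read 7.22 and 7.27 in B3 against 8.18 to 8.46 in the others, Tecpr2 5.58 and 5.13 against 6.43 to 6.70, and Coa8 7.47 and 7.66 against 8.55 to 8.78. Within the run, Yy1, a zinc finger transcription factor, stood at 10.53 and 10.70 in B3, 11.65 and 11.52 in A1 and 11.47 and 11.37 in C6 (-0.88, adjusted p = 0.078). Hsp90aa1, the inducible cytosolic chaperone, read 13.40 and 13.23 in B3 against 13.88 to 14.03 in the others (-0.64, adjusted p = 0.13). Rcor1, a CoREST corepressor subunit, was 1.92-fold lower (log2 -0.94, adjusted p = 0.044). Ppp2r5c, a regulatory subunit of phosphatase PP2A, differed by -0.88, Dync1h1, the dynein heavy chain, by -1.01, and Mark3 and the creatine kinase Ckb by -0.80 each, without a call. The imprinted noncoding RNAs Meg3 (-0.08) and Mirg (-0.08), which sit in the middle of the run, and Slc25a29 (-0.03), Tnfaip2 (0.16) and Xrcc3 (0.05) were near 0, and Rian, of the same imprinted cluster as Meg3, differed by -0.31 without a call.

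In the 15 scanned genes before the run, 1 had both B3 arrays below all others, and in the 15 after it 2 did. Of the 313 other genes on chromosome 12, 63 did. Counting probe sets in place of genes, 38 of the 60 with a mean of at least 6 were below all others, with a median of -0.61. The 20 genes of the run with a mean under 6 divided evenly, 3 below all others and 3 above. With windows of 7 genes, the run went from Vrk1 to Xrcc3, and a second of 8 genes on chromosome 4 appeared (median -0.40). With windows of 15 genes, it went from Papola to Ppp1r13b, with a median of -0.60.

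**Figure D4:**
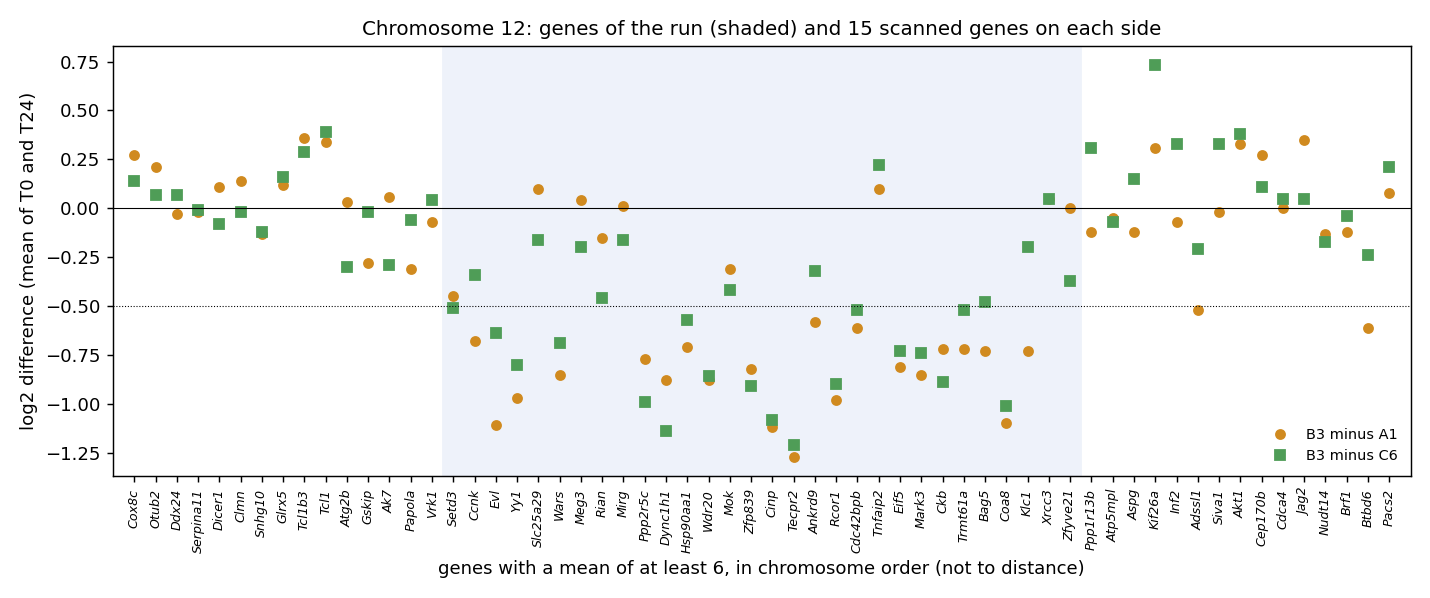
Difference of B3 from A1 and from C6 (log2, vertical axis) for genes of chromosome 12 in chromosomal order, not to distance, with the run of 30 genes shaded and 15 scanned genes on each side. Most shaded genes lie below -0.5 against both clones (dotted line), and the flanking genes scatter around 0.

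Only 3 genes were called higher in B3 at 1 probe set per gene. Lefty1 stood at 11.04 and 11.08 in B3, at 9.78 and 10.04 in A1 and at 9.56 and 9.72 in C6 (2.44-fold higher, log2 1.28, SE 0.13, adjusted p = 0.040). Lefty2, a related Nodal inhibitor, differed by 0.36 without a call, and Nodal itself by -0.03. Khdc3, a maternal-effect gene that guards genome stability, stood at 10.53 and 10.62 in B3 and between 9.46 and 9.61 in the other arrays (2.03-fold, adjusted p = 0.035). Znf41-ps, a zinc finger pseudogene, stood at 9.94 and 9.90 in B3 and between 8.70 and 9.01 in the others (2.09-fold, adjusted p = 0.044).

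Several genes had both B3 arrays above all others without a call. Cd99, a surface glycoprotein, stood at 8.36 and 7.94 in B3, 6.66 and 6.82 in A1 and 6.11 and 6.07 in C6, a difference of 1.74 (adjusted p = 0.096), Klhl13, an adaptor of a Cul3 ubiquitin ligase, by 1.47 (adjusted p = 0.16), and Gpx2, a glutathione peroxidase, by 0.97 (adjusted p = 0.096). Rpl39l, a ribosomal protein paralog, missed the threshold with a difference of 0.83 (adjusted p = 0.054). Spink1, a serine peptidase inhibitor, stood at 10.50 and 10.48 in B3, at 9.32 and 9.45 in C6 and at 7.56 and 7.77 in A1, and the difference of 1.97 was not called against both clones together (adjusted p = 0.32), although it passed against A1 (adjusted p = 0.0018) and against C6 (adjusted p = 0.032). Its spread between A1 and C6 was large beside its distance from B3.

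For some genes B3 lay between the other two clones. Eif2s3y, a Y-linked translation factor gene, read 6.74 and 7.10 in B3, 9.35 and 9.03 in A1 and 3.36 and 3.15 in C6. Uty, the Y-linked relative of the histone demethylase gene Kdm6a, read 4.53 and 4.25 in B3, 6.56 and 6.48 in A1 and 3.48 and 3.19 in C6. Both passed the test against each clone, in opposite directions, as did Dppa3, a maternal and germ cell gene (7.50 and 7.62 in B3, 6.41 and 6.29 in A1, 8.58 and 8.80 in C6), and Myo1f. These were 4 genes, whereas 38 were lower and 6 higher in B3 than in each clone. The imprinted gene Mest was at 9.83 and 9.54 in B3 and 9.90 and 9.79 in C6 but at 5.90 and 6.01 in A1, so its difference came from A1. Uba1y, also Y-linked, was not intermediate. It read 6.34 and 6.10 in B3 and 6.19 and 6.18 in A1, but 4.96 and 4.78 in C6.

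**Figure D5:**
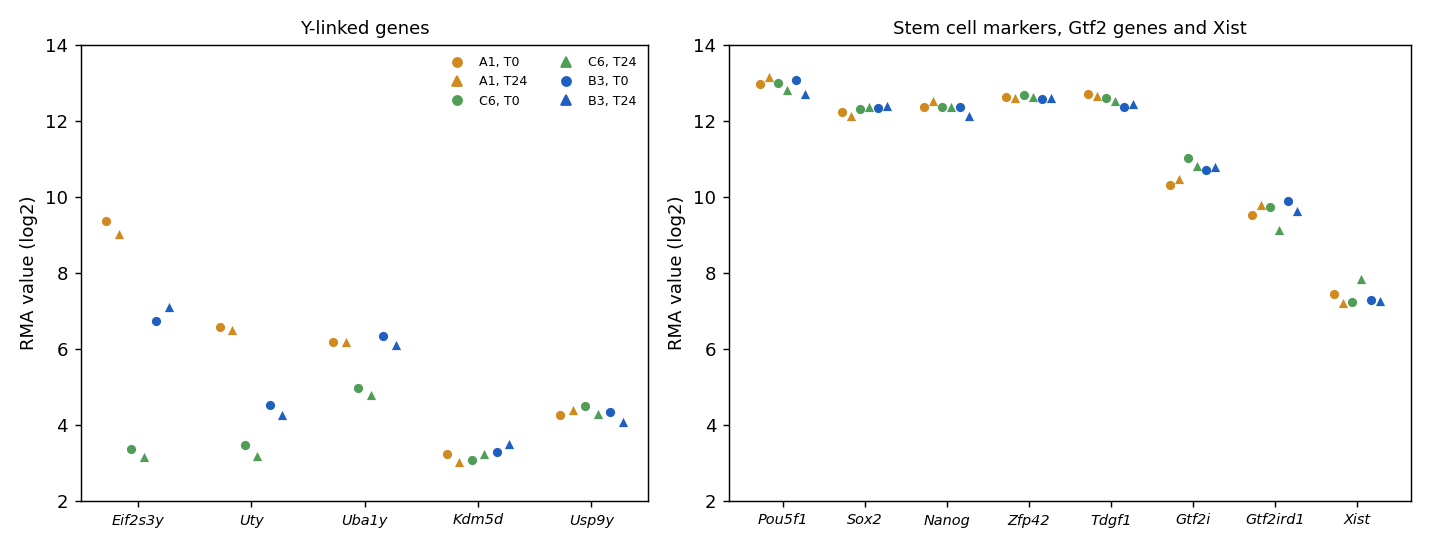
RMA values (log2, vertical axis) of Y-linked genes (left) and of ES cell markers, Gtf2i, Gtf2ird1 and Xist (right) in each array, circles for T0 and triangles for T24. B3 lies between A1 and C6 for Eif2s3y and Uty but level with A1 for Uba1y, and its markers lie with those of the other clones.

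The labelled cell type was checked against markers. The mean level of the ES cell markers was 12.04 to 12.15 in the B3 arrays and 12.04 to 12.23 in the others, and none of the markers of 6 classes was called. The fibroblast markers averaged 4.29 in B3 and 4.29 to 4.43 in the others, the primitive endoderm markers 6.23 to 6.31 and 5.97 to 6.45, the trophectoderm markers 4.56 to 4.61 and 4.46 to 4.54, the neural markers 6.24 to 6.25 and 6.13 to 6.38, and the 2 measured mesoderm markers 5.28 to 5.39 and 5.12 to 5.28. Pou5f1 differed by -0.09, Sox2 by 0.10, Nanog by -0.16 and Zfp42 by -0.05. The brightest mouse Gtf2i probe set differed by 0.09 (95% interval -0.41 to 0.58), Gtf2ird1 by 0.21 and Eif4h by 0.19, none of them called. The probe sets were designed on mouse transcripts, and whether they also bind the human transgene was not tested.

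Of the 42 gene lists, 6 held a called gene, and 41 had a median difference within 0.2 of 0, the two-cell-like list being the exception. Some of the lists shared a call. Lefty1 was on both the primed epiblast and the Nodal, BMP and Id lists, and Rhox5 on both the primitive endoderm and the Rhox lists. The lists of ES cell identity (16 genes, median -0.029), naive pluripotency (27 genes, 0.003), imprinted genes (50 genes, -0.028), the neighbours of Rosa26 (20 genes, -0.009) and the Williams-Beuren region (28 genes, 0.032) had no call. The primed epiblast list (18 genes) had 1, Lefty1, and its median of 0.192 was 0.476 against A1 and -0.132 against C6. On the glycolysis and hypoxia list, 9 of 33 genes (27.3%) had both B3 arrays below all others and 0 above, beside 20.2% and 9.19% of all genes with a mean of at least 6, with a median of -0.078 and no call. Over well measured probe sets (mean of 6 or more), the median half-width of the 95% interval was 0.305, with no adjustment for the number of tests. After adjustment the smallest difference called was 0.852 in size, and some larger ones were not called. A gene without a call can therefore still differ. The arrays correlated between 0.9909 and 0.9962, with array medians from 5.06 to 5.11.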

How the data were processed

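Total RNA of 6 cultures was hybridized to Affymetrix whole-genome mouse arrays. The deposited values were log2 summaries that the authors made with RMA, which corrects background, quantile-normalizes and summarises probes (affy and RMA are named in the submitters' processing notes, without versions). RMA makes the arrays' distributions alike, so a general shift cannot be seen, and fold changes near the floor are compressed. Number of arrays, not read depth, limits precision. After 64 controls were left out, 45037 probe sets were fitted with limma 3.58.1 in R 4.3.3, with terms for B3 and state (3 residual degrees of freedom, two-sided, Benjamini-Hochberg, threshold 0.05). An exact permutation of these arrays could not reach 0.05 and was not used. Gene symbols came from the platform annotation, updated through RefSeq: 34945 probe sets had 1 symbol, 932 several and 9160 none. Named genes were the 15 leading in each direction with a mean of at least 6 and B3 beyond all others, filled by smallest p, up to 4 per list, and a fixed set of controls; genes of the chromosome 12 run and chromosome 13 row, dim called genes and some others were chosen after their values were seen. The members and all lists were chosen with earlier results of these data known. The main limma fit was tested on simulated data, in which the noise of each array was drawn independently. Alternatives were the covariate, clone terms, the t-test of the methods, trended, robust and weighted fits, scalings, filters, thresholds and leaving out arrays.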

Additional observations from a re-analysis of the deposited data

How the results depend on the processing

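The counts of probe sets called higher and lower in B3 were 5 and 48. They came to 20 and 156 with no covariate, 57 and 234 with clone terms, 8 and 51 with a separate induction effect for A1, 68 and 403 with array weights, and 19 and 128 at a threshold of 0.1. They came to 0 and 5 at a threshold of 0.01, 0 and 14 for probe sets averaging 6 or more, 3 and 24 for 1 probe set per gene, and 0 and 0 with the methods' t-test after Benjamini-Hochberg adjustment. Against A1 alone they were 68 and 228, and against C6 alone 360 and 1274. With clone terms, more genes had passed against A1 than against C6, so this order depends on the fit. Leaving out arrays in turn gave 0 to 8 higher and 0 to 51 lower: 0 and 0 without either B3 array, 0 and 2 without A1 T0, 8 and 51 without A1 T24, 0 and 3 without C6 T0, and 1 and 13 without C6 T24. Without a B3 array, the lone B3 array is assumed to vary like the others. Trend, robust, median-centred and cyclic loess fits stayed within 1.5 times of both counts. All 19 named genes called in B3 kept their sign in every setting run. In each of them both B3 arrays lay beyond every array of the other clones, so most settings could not turn the sign. All 19 lost the call in the t-test. Eif2s3y turned to -2.27 against A1 alone and Uty to 1.06 against C6 alone. The median of the two-cell-like list ranged from -0.79 to -0.56, of the germline list from -0.31 to -0.12 and of the chromosome 12 run from -0.72 to -0.55 (settings added after seeing the data). The cause of these shifts was not tested. No paired analysis was possible because each replicate number is a clone and the comparison is between clones.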

Other observations

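Of the 53 called probe sets, 13 carried no gene symbol in the annotation used here, 11 of them lower in B3 (differences -3.01 to -1.39) and 2 higher (0.99 and 1.09).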
